A study of Homo sapiens with 2 samples.

Results

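The mitochondrial 12S and 16S ribosomal RNAs, encoded by MT-RNR1 and MT-RNR2, carried 13 of the 6754 crosslink sites listed for the splicing factor SRSF1 in H1299 cells (0.192%, exact 95% interval 0.103 to 0.329%). Of these, 3 lay in MT-RNR1 and 10 in MT-RNR2, and all 13 were truncation sites. H1299 is an established human lung carcinoma cell line. The study consists of 2 HITS-CLIP libraries, replicates 1 and 2 of 1 group, with no control or input library among the labels. In HITS-CLIP, proteins are bound covalently to RNA by ultraviolet irradiation of cells, the protein of interest is pulled down with an antibody, and the RNA pieces that come with it (tags) are sequenced. A peptide left on the RNA can stop the reverse transcriptase, and the positions where such stops pile up are listed as truncation sites. It can also cause a misread base, which is listed as a mutation site.

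The members were chosen by position, after the list had been seen: plus-strand rows of the mitochondrial sequence with an interval midpoint from 648 to 3230 (hg19), with MT-RNR1 ending at about 1603 and MT-RNR2 beginning at about 1670. Their position and their number are therefore a description. The 2 libraries are combined in 1 list, so no value below has a replicate error, and no test between samples or over sites was made. Intervals are 95% and cover counting error only. The depth of each library is unknown here. Nearest to the limits on the inside were the sites at chrM:917-937, with 6 truncated tags, and chrM:3050-3070, with 13. The nearest plus-strand row outside was chrM:6244-6264, with 5 truncated tags, and there was none on the 5′ side. No site lay in the stretch between the 2 genes, which encodes a transfer RNA.

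Mitochondrial DNA is transcribed from each strand as a long polycistronic RNA, and the ribosomal RNAs are cut from the promoter-proximal end of the heavy-strand transcript, at the transfer RNAs that flank them. The 12S RNA is the core of the small subunit of the mitochondrial ribosome, and the 16S RNA is the core of the large subunit, including the site of peptide bond formation. These are among the most abundant RNAs of the organelle. SRSF1 is an SR-family protein with RNA recognition motifs and an arginine-serine-rich tail. It acts on splicing in the nucleus, shuttles to the cytoplasm, and is known to prefer purine-rich RNA with GGA or GAA repeats. Nuclear genomes also hold copies of mitochondrial DNA, ribosomal genes included.

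The reference sequences of the 2 RNAs hold few of the GGA triplets that SRSF1 is known to prefer. The sequences came from the GENCODE v29 transcripts (GRCh38), in which MT-RNR1 (ENSG00000211459.2) is 954 nt long at chrM:648-1601 and MT-RNR2 (ENSG00000210082.2) is 1559 nt long at chrM:1671-3229. Guanine made up 19.0% of the bases of MT-RNR1 and 17.3% of those of MT-RNR2, and adenine 33.0 and 35.1%. GGA, counted on the RNA strand with overlaps allowed, occurred 10 times in MT-RNR1 (10.5 per kb) and 19 times in MT-RNR2 (12.2 per kb). In the 7727 transcripts within 50 nt of the length of MT-RNR1 the median was 21.9 per kb, and 96.3% had at least as many per kb as MT-RNR1. For MT-RNR2 the median over 3576 transcripts of like length was 21.6 per kb, and 96.3% had at least as many. These comparisons make no allowance for base composition, such as the share of guanine, and GAA triplets were not counted.

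The longer motif GGAGA, which contains GGA, occurred 1 time in each RNA, against 82.0% of transcripts of the length of MT-RNR1 and 94.5% of those of the length of MT-RNR2 that hold it at least 1 time. GAAGAA occurred 0 times in MT-RNR1 and 1 time in MT-RNR2, and is held by 50.7 and 67.6% of the transcripts of like length. On the opposite strand GGAGA occurred 1 time, in MT-RNR2, and GAAGAA in neither. The 3 places are shown because they are the full set of matches on the RNA strands, in capitals with up to 20 nt on either side, 5′ to 3′. They are chrM:1531-1575 in MT-RNR1, and chrM:1863-1907 and chrM:2269-2314 in MT-RNR2 (GRCh38, plus strand).
MT-RNR1 GGAGA: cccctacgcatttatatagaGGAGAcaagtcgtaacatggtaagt
MT-RNR2 GGAGA: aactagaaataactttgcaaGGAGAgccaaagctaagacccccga
MT-RNR2 GAAGAA: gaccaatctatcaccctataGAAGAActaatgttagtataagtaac
Counted from base 1 of each RNA, the motifs stand at 904 to 908, 213 to 217 and 619 to 624. The sites below are given on hg19, whose mitochondrial numbering was not matched to GRCh38, so no motif was placed against a site and no sequence at a site was read.

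MT-RNR1 held 3 sites, all with single-digit tag counts. From 5′ to 3′, the first was at chrM:917-937, with 6 truncated tags (2.20 to 13.1) against 0.21 expected per position of its tag cluster. The second, at chrM:1003-1023, had 9 truncated tags (4.12 to 17.1) against 0.39 expected. The third, at chrM:1370-1390, also had 9 against 0.46 expected. Their counting intervals overlap, so the 3 heights could not be ordered. Observed over expected tags came to 28.6, 23.1 and 19.6 along the RNA, a falling order over 3 sites in which the expected number rose faster than the tags did. Its gene bounds were free of sites over 269 nt at the 5′ end and 213 nt at the 3′ end.

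MT-RNR2 held 10 sites with 5 to 22 truncated tags, and its strongest site stood 558 nt from the 5′ bound and 1002 nt from the 3′ bound. That site, at chrM:2218-2238, had 22 truncated tags (13.8 to 33.3) against 0.75 expected, a ratio of 29.3. Among the 4731 truncation sites of the list, 68 had at least as many tags (1.44%). It was also the only rRNA site at the lowest P in the authors' list, 1e-100, which 2.96% of all truncation sites share. The same value stands at 140 sites and may be a floor of the caller, so its size is not read here. The ratio of the strongest site was not the highest of the gene, in which other sites reached 33.3, 35.7 and 50, and 3116 listed truncation sites had one at least as large. Strongest here means the highest count, since its counting interval overlaps those of other sites, such as the one with 17 tags (9.90 to 27.2).

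On the 5′ side of that site MT-RNR2 held 4 others. The first, at chrM:1737-1757, had 11 truncated tags (5.49 to 19.7) against 0.52 expected. The next, at chrM:1864-1884, had 16 (9.15 to 26.0) against 0.71. At chrM:1975-1995 there were 7 against 0.30. These 3 had nearly equal ratios, 21.2, 22.5 and 23.3, although their tag counts ran from 7 to 16. The fourth, at chrM:2118-2138, had 6 truncated tags against 0.12 expected, and its ratio of 50 was the highest of both rRNAs. It rests on few tags (2.20 to 13.1), and 845 listed truncation sites had a ratio at least as high.

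Downstream of the strongest site came 3 sites with 5 to 11 tags and then a pair close to the 3′ end. At chrM:2400-2420 there were 11 truncated tags against 0.53 expected, and at chrM:2500-2520 there were 10 against 0.30. The lowest count of the 13 was at chrM:2758-2778, with 5 (1.62 to 11.7) against 0.14. The pair at the end shared 1 tag cluster, and with it an expected number of 0.74. Its members were chrM:2972-2992, with 17 truncated tags (9.90 to 27.2), and chrM:3050-3070, with 13 (6.92 to 22.2). At 17.6, the second of the pair had the lowest ratio of the 13. Counted from the middle of the gene bounds, 6 sites with 73 truncated tags lay on the 5′ side and 4 with 45 on the 3′ side, with medians of 11 and 11.5 tags.

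**Figure D1:**
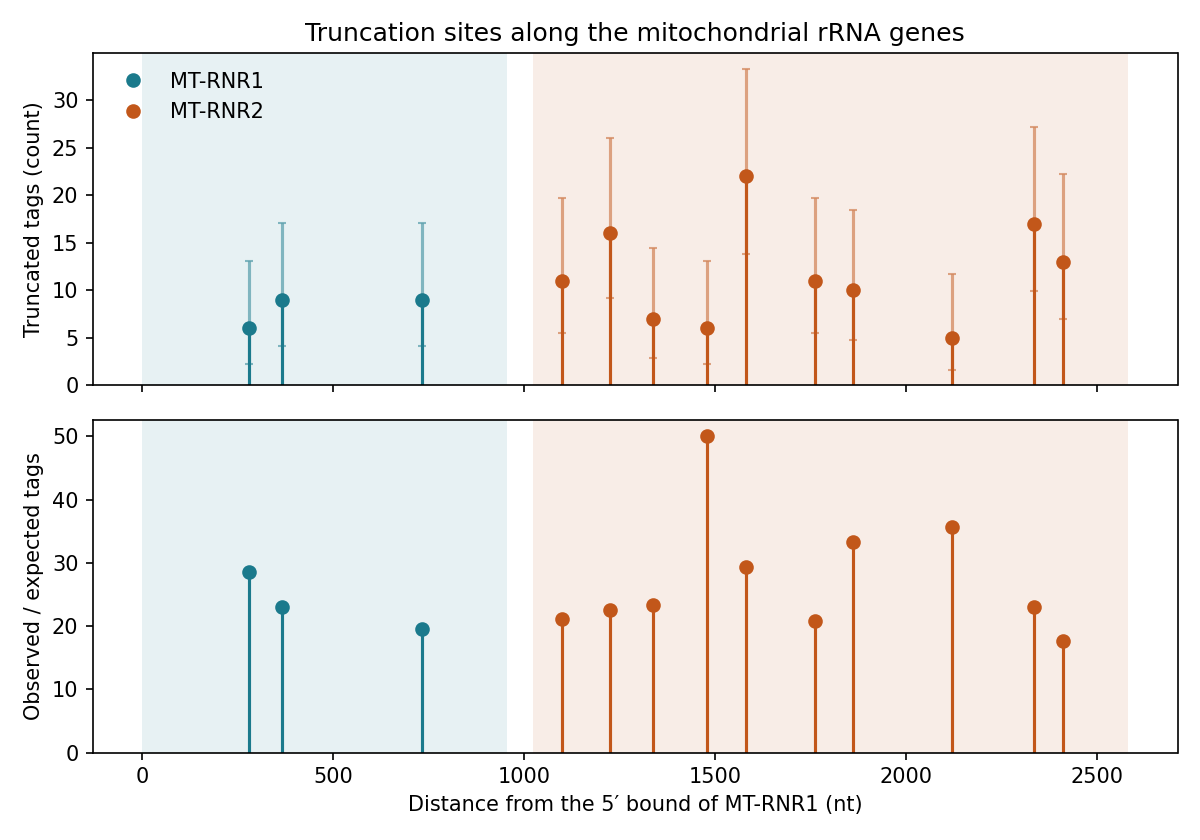
Truncated tags (upper panel, count) and observed over expected tags (lower panel) at each of the 13 sites, against the distance in nt from the 5′ bound of MT-RNR1; shading marks the gene bounds and bars are exact Poisson 95% intervals. MT-RNR1 stays at 6 to 9 tags, MT-RNR2 runs from 5 to 22, and the highest ratio, 50, belongs to a site with 6 tags.

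Set against each other, MT-RNR1 had fewer sites and fewer tags than MT-RNR2, and a like ratio of observed to expected tags. Per kb of the gene bounds, MT-RNR1 held 3.14 sites (0.647 to 9.17) and MT-RNR2 held 6.41 (3.07 to 11.8), and these intervals overlap. MT-RNR1 held 23.1% of the rRNA sites (5.04 to 53.8%) on 38.0% of the summed length, which lies inside that interval. Summed over sites, MT-RNR1 had 24 truncated tags and MT-RNR2 had 118, or 25.1 per kb (16.1 to 37.4) and 75.6 per kb (62.6 to 90.5). The tag intervals do not overlap, but they treat tags as independent, and no source used here says how PCR duplicates were treated.

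The median site of MT-RNR1 had 9 truncated tags (range 6 to 9) and that of MT-RNR2 had 11 (5 to 22). Expected numbers had medians of 0.39 in MT-RNR1 (0.21 to 0.46) and 0.525 in MT-RNR2 (0.12 to 0.75). The ratio had medians of 23.1 in MT-RNR1 (19.6 to 28.6) and 23.2 in MT-RNR2 (17.6 to 50). The range of MT-RNR1 lay inside that of MT-RNR2 for each of the 3 measures. Sites with 10 or more truncated tags numbered 0 of 3 in MT-RNR1 and 7 of 10 in MT-RNR2, against 21.2% of all truncation sites. An expected number of 0.5 or more was found at 0 of 3 and 6 of 10 sites, against 11.3%. At a P of 1e-05 or lower stood 2 of 3 and 8 of 10 sites, against 48.6%.

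The rest of the mitochondrial sequence held 17 rows, 15 of them truncation sites. The selection fixed the plus strand for the rRNA rows, so strand is given as a description. The rRNAs made up 13 of the 14 plus-strand rows (92.9%, 66.1 to 99.8%), and the other one was chrM:6244-6264. The remaining 16 rows were on the minus strand, and 0 of them lay opposite the rRNA genes. The minus strand was free of rows from 386 to 10205, a stretch that spans both genes. Its highest truncation site was chrM:15976-15996, with 15 truncated tags against 0.65 expected, and 2 of its rows were mutation sites.

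In tags, the rRNA sites stood above the other mitochondrial sites in the median but overlapped them in range. The 13 rRNA sites had a median of 10 truncated tags (5 to 22), and the 15 other truncation sites had 6 (4 to 15). Together the rRNA sites held 142 of the 251 truncated tags at mitochondrial sites (56.6%, 50.2 to 62.8%). This interval also treats tags as independent. By rows, the rRNAs held 13 of the 30 on the mitochondrial sequence (43.3%, 25.5 to 62.6%). The expected number had a median of 0.46 in the rRNAs (0.12 to 0.75) and 0.20 elsewhere on the sequence (0.08 to 0.65). Observed over expected tags went the other way, with a median of 23.1 in the rRNAs (17.6 to 50) and 31.6 elsewhere (14.9 to 50). None of these differences has a replicate check.

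**Figure D2:**
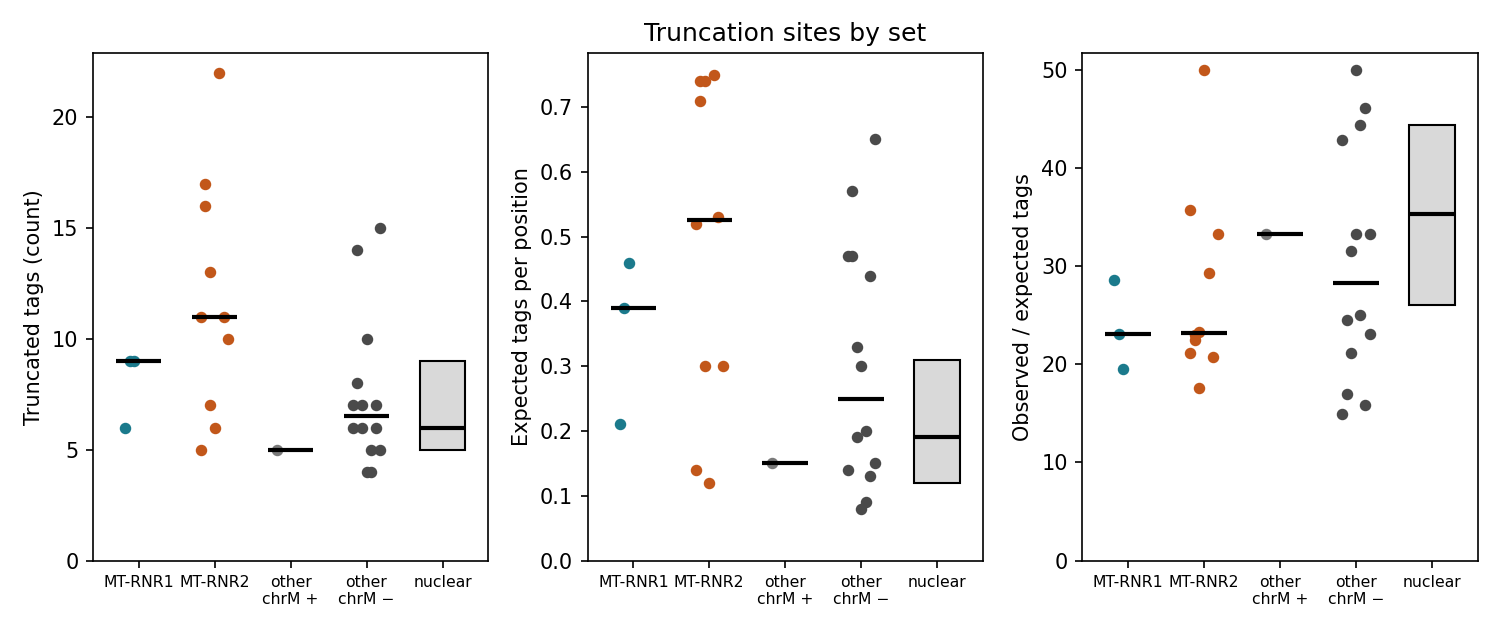
Truncated tags (count), expected tags per position and observed over expected tags for the truncation sites of MT-RNR1 (3), MT-RNR2 (10), the other plus-strand (1) and minus-strand (14) mitochondrial sites, with nuclear sites (4703) as a box. Points are sites, black lines medians and the box the quartiles; the rRNA medians are above the nuclear ones in tags and in expected tags, and below them in the ratio.

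Truncated tags and the expected number went together. Over the 13 rRNA sites the Spearman correlation of truncated tags with the expected number was 0.95, and that of the ratio with the expected number was -0.62. Over the 4703 nuclear sites the same values were 0.86 and -0.82. Sites of 1 list share libraries, some share a cluster, and no listed truncation site has under 4 tags, so these are descriptions. The expected number is also the denominator of the ratio, so the negative values are largely set by construction. The positive values are not free of construction either. The expected number belongs to a site's own tag cluster, and only sites that passed the authors' threshold are listed.

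Read within bands of the expected number, which were set after the values were seen, the rRNA sites lay near nuclear ones. Below 0.25, the 3 rRNA sites had a median of 6 truncated tags and a ratio of 35.7, and 3005 nuclear sites had 5 and 41.2. From 0.25 to 0.5, the 4 rRNA sites had 9 truncated tags and a ratio of 23.2, and 1170 nuclear sites had 8 and 26.1. From 0.5 to 0.8 the order of the ratios turned. The 6 rRNA sites, all in MT-RNR2, had a median of 14.5 tags and a ratio of 21.8, and 317 nuclear sites had 12 (quartiles 10 and 15) and 19.4 (15.8 and 25.4). Of these 6, the sites with 16, 17 and 22 tags were above the upper nuclear quartile in tags, with expected numbers of 0.71 to 0.75. By ratio only the site with 22 tags was above it, at 29.3. The sites with 16 and 17 tags had ratios of 22.5 and 23.0, inside the nuclear quartiles.

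**Figure D3:**
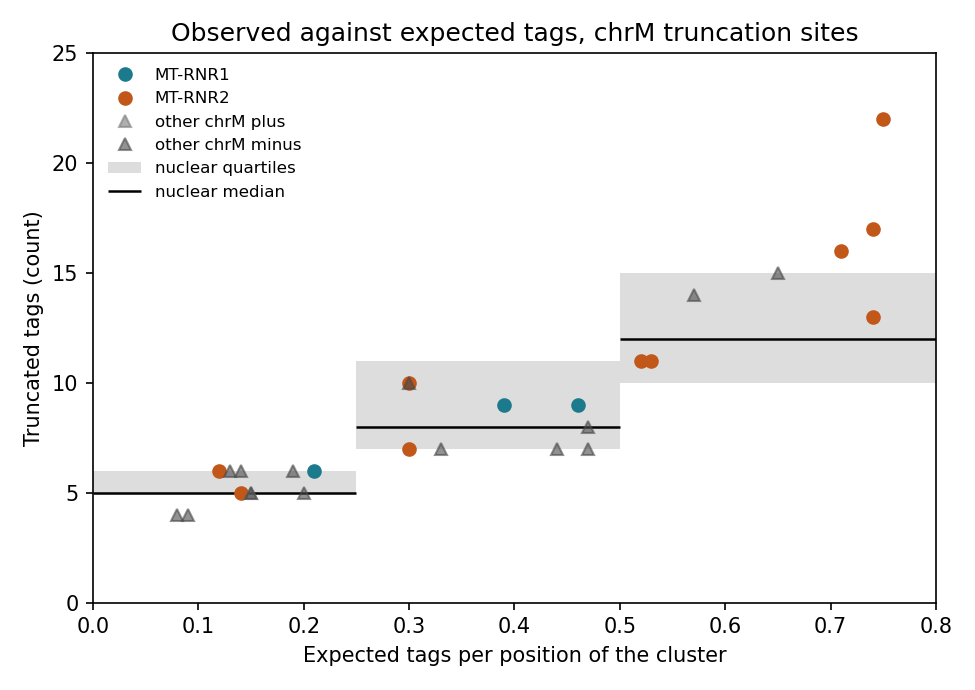
Truncated tags (count) against the expected tags per position for each mitochondrial truncation site; grey boxes and black lines are the quartiles and medians of nuclear sites in 3 bands of the expected number. Tags climb with the expected number in MT-RNR2, in the minus-strand mitochondrial sites and across the nuclear bands. MT-RNR1 (3 sites) and the other plus-strand set (1 site) are too small to show a trend. Of the 6 MT-RNR2 sites from 0.5 upwards, 3 stand above the nuclear quartiles.

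No mutation site was listed in either rRNA. With 0 of 13 rows, a share of up to 23.1% is allowed by counting alone. Mutation sites made up 2 of the 17 other mitochondrial rows (11.8%, 1.46 to 36.4%) and 2021 of 6724 nuclear rows (30.1%, 29 to 31.2%). Seen from the truncation sites, 0 of 13 in the rRNAs had a mutation site within 50 nt on the same strand, against 6.79% of all truncation sites. This 0 was fixed in advance, since no plus-strand mitochondrial row was a mutation site. It adds nothing to the count above, and 13 sites are too few to show a difference from 6.79%. Among nuclear truncation sites with an expected number from 0.5 to 0.8, 10.7% had a mutation site within 50 nt. The 6 MT-RNR2 sites in that band are also too few to show a difference from it.

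Sites reached closer to the ends of the gene bounds in MT-RNR2, which were free over 67 nt at the 5′ end and 160 nt at the 3′ end. The 2 gaps in MT-RNR1, from midpoint to midpoint, were 86 and 367 nt. The 9 gaps in MT-RNR2 were 127, 111, 143, 100, 182, 100, 258, 214 and 78 nt from 5′ to 3′, with a median of 127. The widest, 258 and 214 nt, flanked the site with the fewest tags. Across the gene border the gap was 367 nt, equal to the wider gap in MT-RNR1. The 13 gaps between minus-strand truncation sites had a median of 175 nt and ran from 51 to 9841. Nuclear neighbours up to 1000 nt apart had a median gap of 143 nt, over 968 gaps.

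**Figure D4:**
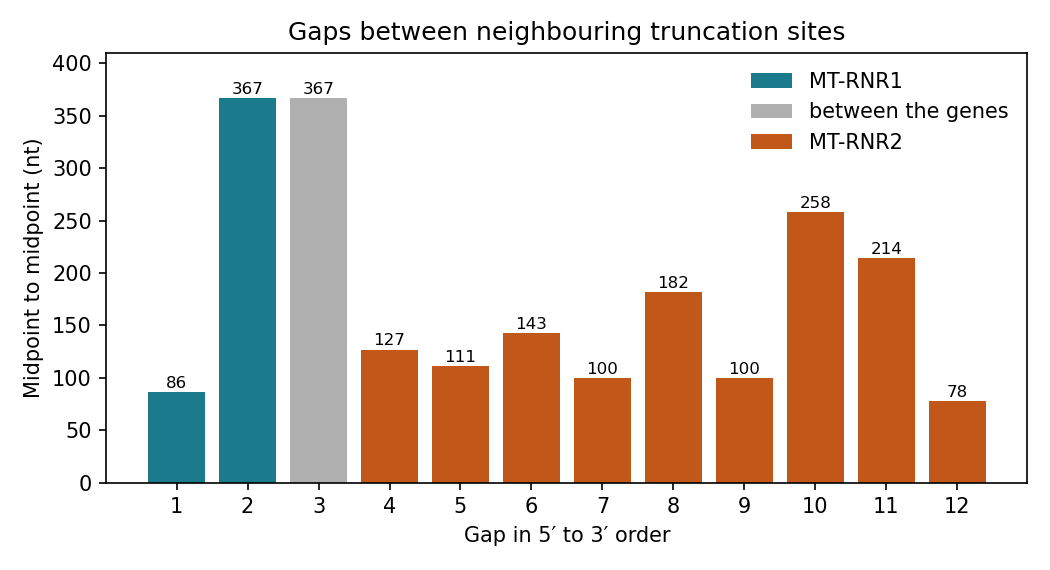
Distance in nt between the midpoints of neighbouring truncation sites, in 5′ to 3′ order along the 2 genes; each bar is 1 gap. The MT-RNR2 gaps lie between 78 and 258 nt, below the 367 nt of the wider MT-RNR1 gap and of the gap across the gene border.

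The 13 sites lay in 12 of the tag clusters that the authors numbered, between plus-strand numbers 3 and 17. The ends of this run are set by the sites themselves, and clusters in the site-free ends of the genes are not counted. Within it, numbers 5, 10 and 15 held no listed site, and by their order they fall between the second and the third site of MT-RNR1, between the third and the fourth of MT-RNR2, and between the seventh and the eighth. Of the 12 rRNA clusters, 1 held 2 sites, and of 4344 nuclear clusters with a truncation site, 256 did so (5.89%) or held more.

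Joined at gaps of up to 1000 nt, the 13 sites formed a single locus from 917 to 3070, with 6.04 sites per kb over 2154 nt. Of the 5199 loci of the list, 9 held more sites, and 11, this one included, held at least as many. It was the only one of those 11 without a mutation site. The share over all loci was not counted, and loci with more sites have more rows that could be mutation sites. No source used here says where reads matching both the mitochondrial sequence and its nuclear copies were placed, and the part this had in the tag counts was not tested. Without a control library, a high tag count from an abundant RNA and one from frequent contact with SRSF1 cannot be told apart.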

How the data were processed

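SRSF1 HITS-CLIP was performed on H1299 cells in 2 replicates. Per the submitters' processing notes, cutadapt and BWA 0.7 were among the tools and hg19 was the build. No source used here gives the caller settings, duplicate removal or multi-mapping. What the authors deposited is 1 list of 6754 sites with a tag count each and no column per replicate, so depth per sample is unknown and no replicate error exists. Row names follow the CTK toolkit: PH is the count of truncated tags, PH0 the expected count per position of the tag cluster, and P the authors' p-value; these meanings are not stated in the labels.

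From this list, with python 3.11.15, pandas 2.3.3 and scipy 1.17.1, rows were assigned by interval midpoint (1-based hg19). Ratios, medians, gaps, exact Poisson intervals of counts and Clopper-Pearson intervals of shares were computed, with a floor of 3 counts for a share of 0. Assignment and gaps were checked on simulated data. Motifs were counted in GENCODE v29 transcripts. The members and bands were chosen with earlier results of these data known. MT-RNR1 and MT-RNR2 are named with every site, and of the other mitochondrial sites the highest on each strand. Gene bounds come from the selection rule, since no hg19 annotation was used here.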

Additional observations from a re-analysis of the deposited data

How the results depend on the processing

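Of 49 alternative values, 45 stayed within 1.5 times the reported one, and all 4 that moved came from fewer sites or gaps being counted. With 10 or more truncated tags required, the rRNA sites numbered 7 instead of 13, and those in MT-RNR1 0 instead of 3. At a P of 1e-05 or lower the median gap in MT-RNR1 was 367 nt instead of 226.5, from 1 gap in place of 2. Within a tag cluster the MT-RNR2 gap was 78 nt instead of 127, from 1 gap, and MT-RNR1 had no such gap. Moving the gene bounds inwards by 50 nt, an alternative chosen after seeing the data, kept all 13 sites. That move could not drop a site, since the shortest site-free end was 67 nt. Nor could merging sites within 50 nt change the number, since the smallest gap was 78 nt. The 45 therefore include values that could not move. Leaving out a replicate could not be run, and no value has a spread between replicates. No paired analysis was possible because the list has no column per replicate. The heights rest on few counts: single sites have 5 to 22 tags, and a stretch with no listed site may hold positions under the authors' threshold.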
